A study of Mus musculus with 36 samples.

Results

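The libraries described are 10 of the 36 in the series: bulk RNA from the quadriceps, the large thigh muscle, of mice 3 days after partial hepatectomy (PHx) (5 libraries) and 1 day after it (5 libraries). They were chosen by tissue and day alone, and no expression value entered the choice. The animals were male C57BL6/J mice aged 12 to 14 weeks in which 70% of the liver was removed. The titles give the day of each library, while the treatment label reads day 3 for every sample. Sham-operated mice (3 quadriceps libraries), which had a laparotomy with no liver removed, and mice 7 days after PHx (5 quadriceps libraries) enter the fit and are used to place the 2 days. The day on which sham muscle was taken is not given in the labels. The series title links hepatic Yap1, a Hippo pathway coactivator, to whole-body catabolism and muscle loss, and no library described here is labelled with a Yap1 manipulation.

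Skeletal muscle is the largest store of amino acids in the body. In wasting states its proteins are broken down mainly by the ubiquitin-proteasome system, in which ligases such as atrogin-1 (Fbxo32) and MuRF1 (Trim63) tag contractile proteins and the proteasome degrades them, and by autophagy, which delivers organelles and aggregates to lysosomes. FOXO transcription factors and the glucocorticoid receptor switch on the ligases, and insulin and IGF-1 signalling through AKT restrains FOXO. The proteasome is a 20S core of alpha and beta rings, which holds the proteolytic sites, capped by a 19S particle whose ATPases unfold substrates.

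From day 1 to day 3 the muscle transcriptome moved in 2 broad ways. Transcripts of the proteasome, the cytosolic ribosome and many translation factors rose. Transcripts of fast-fibre glycolysis, calcium release, the respiratory chain and the collagens fell. Of 13601 genes tested with edgeR's quasi-likelihood test, 1853 (13.6%) were higher and 1711 (12.6%) were lower on day 3 at a Benjamini-Hochberg adjusted p under 0.05, and the median log2 fold change of all genes was 0.00259. The day 3 libraries lay wholly above the day 1 libraries for 7.49% of genes and wholly below them for 7.68%.

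The gene lists below were counted against these shares, with levels as CPM (counts scaled to a common library size after TMM) and each fold change on the log2 scale, day 3 over day 1, with its standard error. Total counts of the 10 libraries ran between 15506197 and 29623890. On the first principal component, which held 40.7% of the variance, the day 3 libraries scored 58.5, 53.5, 35.1, 54.3 and 5.99, against -21.9, -43.6, -14, -56.8 and -70.9 for the day 1 libraries. Day 3 replicate 5 thus lay nearest to the day 1 group on this axis, and without it 2272 genes were higher and 2011 lower. The labels number the libraries within a group without tying a number to an animal, so p-values measure the spread between these libraries only. Markers of muscle fibres were abundant in all 10 libraries. Fewer cells of a type and less RNA per cell cannot be told apart in bulk tissue.

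**Figure D1:**
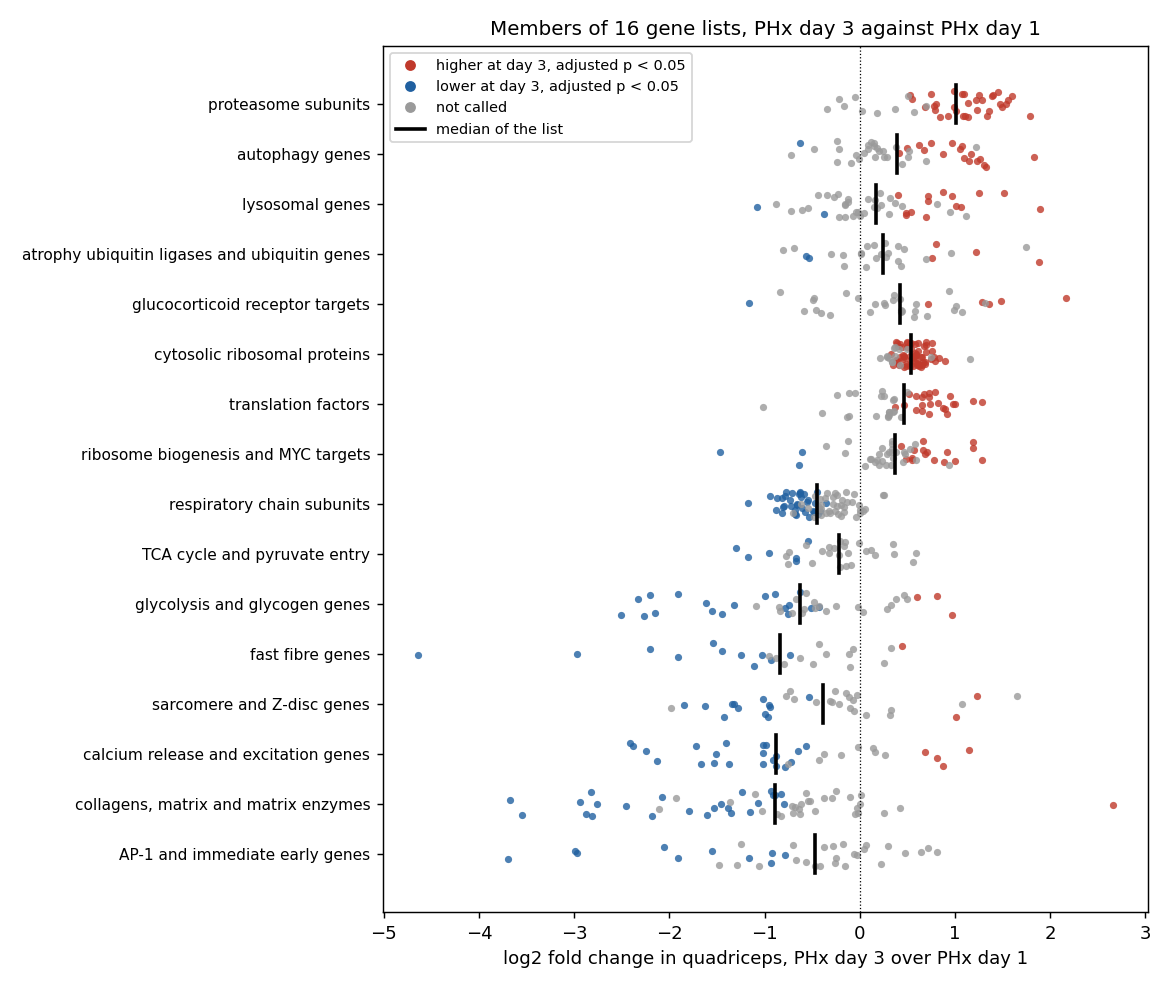
Log2 fold change, PHx day 3 over day 1, of every tested member of 16 gene lists (1 point a gene, red called higher, blue called lower, grey not called, black bar the median of the list). Proteasome, ribosomal protein and translation factor members lie mostly above 0, and respiratory chain, calcium release and collagen members mostly below it.

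The promoters of proteasome subunit genes were examined because the subunits moved together. The letters TGACNNNGC, the core of the antioxidant response element that NRF1 and NRF2 bind, were searched on both strands from 250 bases before to 50 bases after the annotated start. Psmb5 and Psmb6, which encode catalytic beta subunits of the core, both held a match close to the start. The stretches of 120 bases before the start are shown 5′ to 3′ on the gene's strand, from RefSeq on GRCm38.p6, with the match in capitals. Psmb5 lies at chr14:54617996-54618115, minus strand, and Psmb6 at chr11:70525237-70525356, plus strand.
Psmb5: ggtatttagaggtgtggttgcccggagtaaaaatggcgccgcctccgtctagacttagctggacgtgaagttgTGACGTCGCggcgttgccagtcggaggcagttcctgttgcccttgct
Psmb6: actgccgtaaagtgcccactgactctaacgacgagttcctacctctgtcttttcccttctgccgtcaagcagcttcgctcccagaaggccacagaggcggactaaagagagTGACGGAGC
The match was present in 7 of the 36 proteasome genes with a promoter sequence (19.4%), in 5 of the 28 of these that were called higher (17.9%) and in 1760 of all 10257 tested genes with one (17.2%). The share among proteasome genes was thus near that among all genes.

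Proteasome genes rose almost as a block. Of 43 tested members 33 were called higher and 0 lower, with a median log2 fold change of 1.01 and a range between -0.34 and 1.79. In 27 members the day 3 libraries all lay above the day 1 libraries. The rise took in the whole 20S core, with 7 of 7 alpha subunits (median 1.26) and 7 of 7 beta subunits (median 1.24) higher. It took in all 6 ATPases of the 19S particle (median 1.05) and 11 of its 15 other members (median 0.994). Of the 4 of these that were not called, Psmd5, Psmd9 and Psmd10 encode chaperones of 19S assembly rather than parts of the finished particle, at -0.34 ± 0.21, 0.18 ± 0.13 and 0.028 ± 0.19 on the log2 scale, and the fourth is the lid gene Psmd7, at 0.70 ± 0.26 (adjusted p = 0.0569, called at 0.0433 without day 1 replicate 1 and at 0.0293 without day 3 replicate 5). Of 5 chaperones of 20S assembly only Pomp was called higher, by 0.69 ± 0.13, and the median of the 5 was -0.048. The count of higher members stayed between 31 and 35 when each library was left out in turn. Psme1, a proteasome activator gene that is not in this list, was called lower, at -0.57 on the log2 scale. Its call was lost without day 1 replicate 2, 4 or 5 or day 3 replicate 2, 3 or 4 (adjusted p between 0.0516 and 0.0781).

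Psmb4, a beta subunit of the core (chr3:94884324-94886958), was at 215, 227, 207, 221 and 115.9 CPM in the day 3 libraries, against 83.8, 53.3, 72.1, 57.7 and 59.1 CPM in the day 1 libraries. Every day 3 library exceeded every day 1 library, with replicate 5 the lowest of the day 3 group (log2 fold change 1.60 ± 0.23, adjusted p = 0.000592). Psma7, an alpha subunit with the largest fold change of the list, was at 209, 193, 186, 201 and 108.3 CPM in the day 3 libraries, against 70.1, 45.3, 60.9, 43.3 and 39.8 CPM in the day 1 libraries, again with no overlap (log2 fold change 1.79 ± 0.34, adjusted p = 0.00168). The ATPase gene Psmc4 showed the same picture, at 181, 215, 193, 207 and 93 CPM in the day 3 libraries, against 75.2, 58.4, 70.2, 48.4 and 50.8 CPM in the day 1 libraries (log2 fold change 1.55 ± 0.31, adjusted p = 0.00218). Psmb5, the chymotrypsin-like catalytic subunit, was at 36.1, 39.1, 37.2, 39.6 and 22.2 CPM in the day 3 libraries, against 15.3, 12.6, 17.8, 14.6 and 13.6 CPM in the day 1 libraries. Its groups were separate too, although day 3 replicate 5 came close to the highest day 1 library (log2 fold change 1.24 ± 0.21, adjusted p = 0.001). Smaller was the rise of Psmb6, the caspase-like subunit (log2 fold change 0.78 ± 0.16, adjusted p = 0.00293). Psmd11, a lid subunit of the 19S particle, was at 121.1 to 123.9 CPM in sham muscle, 185 to 369 CPM on day 1 and 388 to 774 CPM on day 3 (log2 fold change 1.29 ± 0.33, adjusted p = 0.00905). The other leading members, Psmd13 of the lid and Psmb3 of the core, rose by 1.39 ± 0.21 and 1.47 ± 0.25 on the log2 scale.

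The genes of the muscle ubiquitin ligases were not called between the 2 days, and were above their sham levels on both. Fbxo32 was at 9572, 10286, 7087, 8761 and 3452 CPM in the day 3 libraries, against 3986, 1668, 3922, 1355 and 758 CPM in the day 1 libraries. Day 3 replicate 5 lay below day 1 replicates 1 and 3, so the groups overlapped (log2 fold change 1.74 ± 0.69, adjusted p = 0.0716). It was called by a fit of the 10 libraries alone and by DESeq2 (adjusted p = 0.019 and 0.0218). Trim63 was at 5003, 4396, 2193, 3163 and 1059.7 CPM in the day 3 libraries, against 1168, 2408, 1935, 1478 and 1126 CPM in the day 1 libraries, also with overlap (log2 fold change 0.96 ± 0.73, adjusted p = 0.351). In sham muscle Fbxo32 was at 281 to 313 CPM and Trim63 at 75 to 84.1 CPM. Trim63 was called higher on day 1 against sham (log2 fold change 4.34, adjusted p = 0.0352) and on day 3 against sham (5.31, adjusted p = 0.00128), and Fbxo32 on day 3 only (4.74, adjusted p = 0.00142, against 2.99, adjusted p = 0.0576, on day 1). These comparisons share the sham libraries with each other and the day 1 and day 3 libraries with the comparison of the 2 days.

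Among the 28 tested genes of atrophy ligases and ubiquitin, 4 were higher and 2 lower between the 2 days (median 0.247). Of all genes 13.6% were higher and 12.6% lower. Fbxo31, an F-box subunit of an SCF ligase, was at 463, 556, 480.1, 613 and 522 CPM in the day 3 libraries, against 139.7, 125, 216, 111.9 and 122.9 CPM in the day 1 libraries, with separate groups (log2 fold change 1.88 ± 0.33, adjusted p = 0.00131). Ubb, a polyubiquitin gene, rose by 1.22 ± 0.31, and Usp14, a deubiquitinase of the proteasome, by 0.80 ± 0.23 (adjusted p = 0.0181, and 0.0509 without day 1 replicate 5). The large ligase gene Ubr4 rose by 0.76 ± 0.24, with adjusted p between 0.0572 and 0.0636 without day 1 replicate 2 or 4 or day 3 replicate 2 or 4. Stub1, which encodes the chaperone-associated ligase CHIP, fell by 0.53 ± 0.16 (adjusted p = 0.0234), a call that was lost without day 1 replicate 4 or 5 or day 3 replicate 4 (adjusted p between 0.0571 and 0.0745). The conjugating enzyme gene Ube2d1 fell by 0.57 ± 0.18, and 5 of the 10 fits without 1 library lost the call. The count of lower members ran between 0 and 3 when each library was left out.

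Autophagy genes rose in smaller steps. Of 44 tested, 17 were higher and 1, the kinase gene Ulk2, lower (by 0.62 ± 0.16), with a median of 0.394 (14 to 21 higher when each library was left out). Map1lc3b, an ATG8 protein of the autophagosome membrane, was at 622, 488, 432, 502 and 447 CPM in the day 3 libraries, against 213, 248, 259, 195 and 194 CPM in the day 1 libraries, with separate groups (log2 fold change 1.17 ± 0.25, adjusted p = 0.00332). Gabarap, of the same family, rose by 1.08 ± 0.22, and Uvrag, a partner of Beclin 1 in the class III PI3-kinase complex, by 1.27 ± 0.22. Bnip3 and Park2, genes of mitophagy, also rose. Bnip3, a mitophagy receptor, was at 2650.4, 1792, 1412, 1827 and 843 CPM in the day 3 libraries, against 652, 352, 820.3, 307 and 258 CPM in the day 1 libraries, with day 3 replicate 5 just above the highest day 1 library (log2 fold change 1.84 ± 0.5, adjusted p = 0.013). Park2, which encodes the ligase parkin, rose by 0.88 ± 0.19. Sqstm1, the cargo receptor p62, rose by 1.15 ± 0.34 (adjusted p = 0.0189, and 0.0504 without day 1 replicate 4).

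Lysosomal genes rose in part. Of 48 tested, 14 were higher (13 to 15 when each library was left out), 2 were lower (1 to 6, with 6 without day 3 replicate 5), Ctsc and Atp6ap1, a subunit of the proton pump, and the median was 0.168. Atp6ap1 (fall of 0.38 ± 0.12) was not called without day 1 replicate 2, 4 or 5. Cathepsin L, a lysosomal cysteine protease (Ctsl), was at 621, 442, 399, 491 and 257 CPM in the day 3 libraries, against 118.8, 117.1, 162, 87.8 and 111.1 CPM in the day 1 libraries, with separate groups (log2 fold change 1.89 ± 0.39, adjusted p = 0.00278). Cathepsin Z (Ctsz) rose by 1.01 ± 0.19. Cathepsin C (Ctsc), a protease that activates granule proteases of leukocytes, went the other way, at 13.1, 8.79, 12.1, 10.6 and 17 CPM in the day 3 libraries, against 28.5, 22.5, 24, 30.9 and 23.9 CPM in the day 1 libraries, without overlap (log2 fold change -1.08 ± 0.19, adjusted p = 0.00124). Of the calpains, the calcium-dependent cytosolic proteases, the shared small subunit Capns1 rose by 0.72 ± 0.15, and the muscle-specific Capn3 fell by 1.22 ± 0.27.

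**Figure D2:**
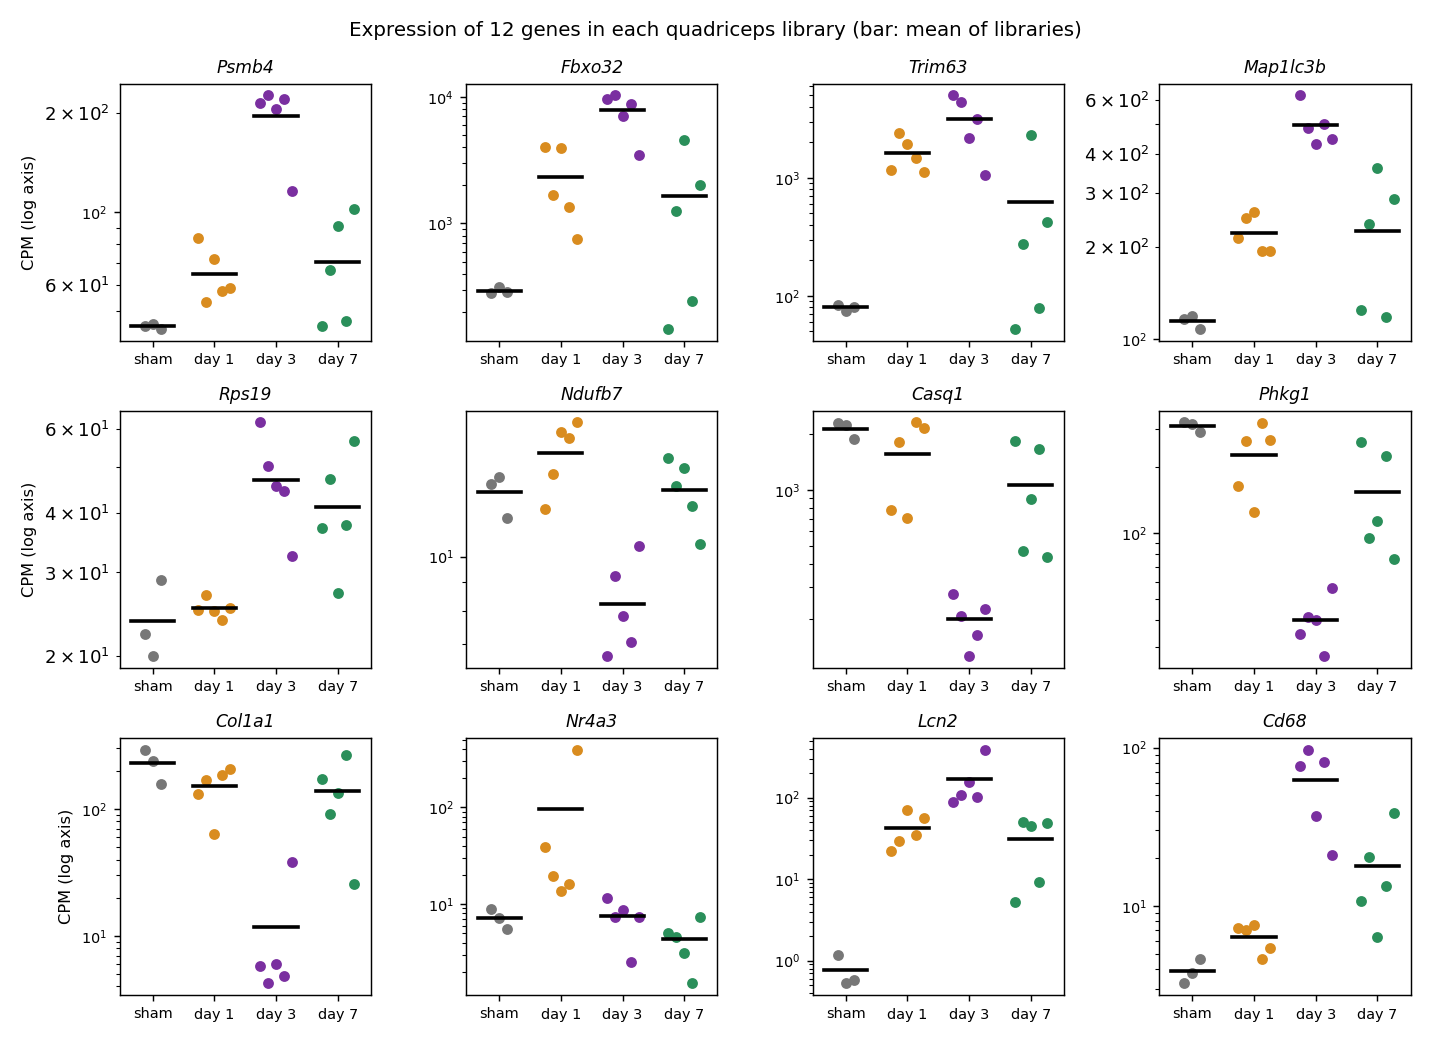
CPM on a log axis of 12 genes in each quadriceps library of sham, PHx day 1, day 3 and day 7 mice (1 point a library, bar the mean). Psmb4, Map1lc3b, Rps19 and Cd68 are highest on day 3 with no overlap with day 1, Casq1, Phkg1 and Col1a1 are lowest on day 3, and Fbxo32 and Trim63 overlap between day 1 and day 3.

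Glucocorticoid receptor targets were for the most part in place by day 1. Of 34 tested, 22 were higher on day 1 against sham, where 3.04% of all genes were, and 28 on day 3 against sham, where 24.8% were. Between the 2 days 5 were higher, Tgm2, Ampd3, Mertk, Rgcc and Mt1, and 1, the phosphatase gene Dusp1, was lower. Of all genes 13.6% were higher and 12.6% lower, so the first count was near its share and the second below it. Dusp1 fell by 1.16 ± 0.37 (adjusted p = 0.027), a call lost without day 1 replicate 1 or 5 or day 3 replicate 3 or 4 (adjusted p between 0.0571 and 0.0854), and Rgcc rose by 1.36 ± 0.46, a call that 6 of the 10 fits without 1 library lost. The count of 5 dropped to 3 without day 1 replicate 1 or day 3 replicate 2 or 4, and to 2 without day 1 replicate 4. Ampd3, an AMP deaminase, was at 851, 877, 420.4, 608 and 273 CPM in the day 3 libraries, against 33.3, 92.5, 162, 109.8 and 279 CPM in the day 1 libraries (log2 fold change 2.16 ± 0.57, adjusted p = 0.0112). Its lowest day 3 library, replicate 5, fell within the day 1 range. Tgm2, a transglutaminase, rose by 1.29 ± 0.29. Mertk, a receptor for apoptotic cells, rose by 0.71 ± 0.21 (adjusted p = 0.0193, and 0.0552 without day 1 replicate 4). Fkbp5, an FK506-binding co-chaperone of the receptor, was at 18.3 to 20.1 CPM in sham muscle, 150 to 343 CPM on day 1 and 296 to 437 CPM on day 3, and the 2 days were not called different (log2 fold change 0.44 ± 0.48, adjusted p = 0.53). Of the other targets fixed for naming, Ddit4 (an mTOR inhibitor), Cebpd and Klf15 were likewise not called between the days, with log2 fold changes of 0.10 ± 0.79, 1.01 ± 0.75 and 0.59 ± 0.49.

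The insulin, mTOR and FOXO list gave 11 higher and 6 lower of 45, with a median of 0.0468. Among all genes 13.6% were higher and 12.6% lower. The count of higher members fell to 7 without day 1 replicate 2, 4 or 5 or without day 3 replicate 2 or 4. Akt1, the kinase that restrains FOXO, was at 147, 201, 146, 140.1 and 85.7 CPM in the day 3 libraries, against 48.8, 41.9, 41.9, 43.5 and 36.1 CPM in the day 1 libraries, with separate groups (log2 fold change 1.76 ± 0.32, adjusted p = 0.00148). Its activating kinase Pdpk1 rose by 1.07 ± 0.23, the S6 kinase Rps6kb1 by 0.81 ± 0.12 and the mTOR brake Tsc1 by 0.88 ± 0.18. Eif4ebp1, a repressor of cap-dependent translation, was at 258, 341, 348, 364 and 238 CPM in the day 3 libraries, against 127, 95, 137, 73.9 and 54 CPM in the day 1 libraries, without overlap (log2 fold change 1.67 ± 0.44, adjusted p = 0.0113). The ligand and its carrier moved down. Igf1 was at 36.7, 29, 22.2, 23.2 and 16.3 CPM in the day 3 libraries, against 120.2, 37.7, 63.4, 48.8 and 96.1 CPM in the day 1 libraries, without overlap (log2 fold change -1.52 ± 0.46, adjusted p = 0.0224), but the call was lost without day 1 replicate 1 or 5 or day 3 replicate 4 (adjusted p between 0.0514 and 0.0552). Igfbp5, an IGF-binding protein, was at 29.7, 41, 36.1, 29.6 and 161 CPM in the day 3 libraries, against 134, 371, 79.1, 610 and 789 CPM in the day 1 libraries (log2 fold change -2.74 ± 0.75, adjusted p = 0.0134). Day 3 replicate 5 lay above day 1 replicates 1 and 3, the other day 3 libraries below the whole day 1 group, and without it the log2 fold change was -3.54. Of the FOXO genes, Foxo1 and Foxo3 were not called between the days, with log2 fold changes of -0.068 ± 0.48 for Foxo1 and 0.23 ± 0.34 for Foxo3, after both were higher on day 1 against sham (3.03 and 1.70).

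Of 26 genes of the IL-6 family and STAT3, 3 were higher (2 or 3 when each library was left out) and 3 lower (1 without day 1 replicate 2, 4 or 5 or day 3 replicate 2, 3 or 4). These counts were near the shares of all genes (13.6% and 12.6%). Stat3, the transcription factor of the IL-6 family, was at 171, 171, 146, 159.8 and 158 CPM in the day 3 libraries, against 64.2, 88.1, 82.3, 90 and 133 CPM in the day 1 libraries, with separate groups (log2 fold change 0.82 ± 0.19, adjusted p = 0.00471). Its inhibitor Pias3 rose by 0.87 ± 0.19, and the kinase gene Jak2 fell by 0.86 ± 0.22. The receptor genes Cntfr and Lifr fell by 1.28 ± 0.42 and 0.62 ± 0.22, calls that 6 and 8 of the 10 fits without 1 library lost. The receptor gene Il6ra rose by 1.82 ± 0.56 (adjusted p = 0.0227), with adjusted p between 0.0502 and 0.0564 without day 1 replicate 4 or 5 or day 3 replicate 2. The feedback inhibitor Socs3 and the oncostatin M receptor Osmr were not called, at -1.15 ± 0.68 and 0.30 ± 0.21. Of 31 genes of TNF and NF-kB, 7 were higher (5 to 8 when each library was left out) and 2 lower (0 to 2). The p65 subunit Rela rose by 0.92 ± 0.2, the IKK scaffold Ikbkg by 0.90 ± 0.16, the inhibitor Nfkbib by 1.496 ± 0.34 and the kinase Map3k14 by 1.18 ± 0.3. The falls were Cxcl1, a chemokine, and Nfkbiz, a nuclear IkB protein. Cxcl1 was at 0.242, 0.306, 0.354, 0 and 0.351 CPM in the day 3 libraries, against 2.7, 0.0737, 0.0533, 0.391 and 10.1 CPM in the day 1 libraries, with only day 1 replicates 1 and 5 well above the day 3 libraries (log2 fold change -3.37 ± 1, adjusted p = 0.0247, and 0.0569 without day 3 replicate 4). Nfkbiz fell by 1.07 ± 0.39 (adjusted p = 0.0491), a call that 7 of the 10 fits without 1 library lost, and its log2 fold change was -0.29 without day 1 replicate 5. Lcn2, an iron-siderophore-binding acute phase protein, was at 89.2, 106.7, 156, 101.3 and 389 CPM in the day 3 libraries, against 22, 29.7, 70.7, 34.6 and 55.8 CPM in the day 1 libraries, with separate groups (log2 fold change 1.98 ± 0.57, adjusted p = 0.0175); without day 3 replicate 5 the log2 fold change was 1.41 and the adjusted p 0.052. Sham muscle held 0.529 to 1.18 CPM of Lcn2. The metallothionein Mt1, a zinc-binding protein, was at 1079, 2106, 2451, 2207 and 1787 CPM in the day 3 libraries, against 159, 766, 587, 549 and 1381 CPM in the day 1 libraries, with day 3 replicate 1 below day 1 replicate 5 (log2 fold change 1.48 ± 0.52, adjusted p = 0.0431), a call lost without any 1 of day 1 replicates 1 to 4 or day 3 replicates 2 to 4 (adjusted p between 0.0672 and 0.0928). Mt2 was not called (log2 fold change 1.31 ± 0.59, adjusted p = 0.109), but was without day 1 replicate 5 (adjusted p = 0.0469).

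The machinery of protein synthesis rose alongside that of breakdown. Of 75 cytosolic ribosomal protein genes tested, 61 were higher and 0 lower. All 75 fold changes were positive, between 0.216 and 1.16, with a median of 0.534, and 37 genes had separate groups. The counts were alike for the small subunit, with 26 of 32 higher (median 0.584), and the large subunit, with 35 of 43 higher (median 0.533). Leaving out 1 library gave between 42 and 70 higher. Ribosomal protein genes have many processed pseudogenes, and how shared reads were counted is not given in the sources used here, so single members are uncertain.

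Rps19, a small-subunit protein, was at 61.9, 50.2, 45.5, 44.4 and 32.4 CPM in the day 3 libraries, against 25, 27, 24.9, 23.8 and 25.3 CPM in the day 1 libraries, with separate groups (log2 fold change 0.89 ± 0.19, adjusted p = 0.00278). Rps6, the target of the S6 kinase, rose by 0.75 ± 0.16, Rpl27 by 0.66 ± 0.14 and Rps9 by 0.66 ± 0.15. Many ribosomal protein mRNAs begin with a run of pyrimidines (the TOP motif), through which mTOR controls their translation. A C followed by 4 letters that are each C or T, beginning within 2 bases of the annotated start, was found in 20 of the 56 ribosomal protein genes with a RefSeq sequence (35.7%), in 7 of 35 translation factor genes (20%), in 4 of 36 proteasome genes (11.1%) and in 1248 of 10257 tested genes (12.2%). The starts of 3 members that rose are shown as windows of 30 bases, 5′ to 3′, with the pyrimidines from the C of the match to the end of the run in capitals. In Rpl14 pyrimidines also precede the capitals. They lie on GRCm38.p6 at chr4:86857353-86857382 (Rps6, minus strand), chr17:33955651-33955680 (Rps18, minus strand) and chr9:120571502-120571531 (Rpl14, plus strand).
Rps6: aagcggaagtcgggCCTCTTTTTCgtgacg
Rps18: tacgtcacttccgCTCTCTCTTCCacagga
Rpl14: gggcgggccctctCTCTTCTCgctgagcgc
Rps18 rose by 0.69 ± 0.17 and Rpl14 by 0.70 ± 0.17 on the log2 scale. No library of this set measured translation.

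Translation factors followed the ribosomal proteins, with 23 of 45 higher and 0 lower (median 0.461, 19 to 30 higher when each library was left out). Of the 12 eIF3 subunits 9 were higher (median 0.69), of 24 other initiation factors 13 (median 0.554), and of 9 elongation and release factors 1 (median 0.237). That factor was Eef1a1, which delivers charged tRNAs, at 0.65 ± 0.24, and 8 of the 10 fits without 1 library lost its call. Eif3g was at 27.2, 30.3, 23.1, 27.5 and 18.6 CPM in the day 3 libraries, against 11.4, 12.2, 13.8, 12.6 and 13.4 CPM in the day 1 libraries, with separate groups (log2 fold change 0.999 ± 0.2, adjusted p = 0.00229). Eif6, which keeps free large subunits from joining the small ones, rose by 1.19 ± 0.25, Eif5b, which joins the subunits, by 0.82 ± 0.17, and Eif3l by 0.73 ± 0.13. Genes of ribosome biogenesis and MYC targets gave 16 higher and 3 lower, Odc1, Nop16 and Dkc1, of 48 (median 0.366, 11 to 21 higher when each library was left out). Nop14, a factor of small-subunit assembly, was at 84.6, 90.2, 81.5, 94.2 and 50.6 CPM in the day 3 libraries, against 39.1, 27, 38.6, 30 and 29.7 CPM in the day 1 libraries. All day 3 libraries were above all day 1 libraries, with replicate 5 the lowest of the day 3 group (log2 fold change 1.29 ± 0.26, adjusted p = 0.00249). The helicase gene Ddx18 rose by 0.999 ± 0.2, the nucleolar chaperone Npm1 by 0.91 ± 0.19 and Pes1, of large-subunit assembly, by 0.89 ± 0.18. The pseudouridine synthase gene Dkc1 fell by 0.64 ± 0.18, and Nop16 by 0.61 ± 0.17.

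Genes of the mitochondrial ribosome moved both ways. Of 76 mitochondrial ribosomal protein genes 18 were lower (16 to 21 when each library was left out) and 10 higher, 5 without day 1 replicate 5. The shares of all genes were 12.6% lower and 13.6% higher, so only the count of lower genes was above its share. The median was -0.0893, with 31 fold changes positive and 45 negative. Mrpl19 was at 3.21, 6.46, 6.73, 5.5 and 7.68 CPM in the day 3 libraries, against 14, 19, 15.3, 19.9 and 18 CPM in the day 1 libraries, without overlap (log2 fold change -1.54 ± 0.23, adjusted p = 0.000625). Mrpl42, Mrpl12 and Mrpl45 fell by 0.84 ± 0.12, 0.82 ± 0.15 and 0.78 ± 0.15.

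Amino acid genes gave 11 higher, 7 without day 1 replicate 4 or day 3 replicate 4, and 4 lower of 47. The shares of all genes were 13.6% higher and 12.6% lower. Slc43a2, an exporter of large neutral amino acids, was at 172, 201, 186, 178 and 119.8 CPM in the day 3 libraries, against 51.9, 26.4, 66.5, 18.7 and 12.4 CPM in the day 1 libraries, with separate groups (log2 fold change 2.28 ± 0.55, adjusted p = 0.00709). Breakdown of branched-chain amino acids was represented by Acadsb, Hibch, Hibadh and Bckdha, a subunit of the branched-chain ketoacid dehydrogenase, which rose by 1.14 ± 0.17, 0.96 ± 0.19, 0.77 ± 0.18 and 0.83 ± 0.23. The glutamine transporter gene Slc38a3 was at 8.97, 18.2, 21.2, 7.49 and 43.6 CPM in the day 3 libraries, against 36.8, 138, 53.5, 98.6 and 106.2 CPM in the day 1 libraries, with overlapping groups (log2 fold change -2.12 ± 0.48, adjusted p = 0.00454). The other falls were Bckdk, the kinase that inactivates the branched-chain ketoacid dehydrogenase, by 0.74 ± 0.18, Pcca by 0.51 ± 0.15, not called without day 1 replicate 5 or day 3 replicate 4, and Mccc2, by 0.40 ± 0.14, whose call 8 of the 10 fits without 1 library lost. The synthetase gene Vars, which charges the valine tRNA, rose by 1.28 ± 0.27. Aimp2, a scaffold of the multi-synthetase complex, fell by 1.89 ± 0.41.

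Genes that set how a fast fibre is excited, releases calcium and burns glucose fell. Of 33 genes of calcium release and excitation, 21 were lower and 4 higher, with a median of -0.876 (18 to 22 lower and 3 or 4 higher when each library was left out). Casq1, the calcium store protein of the fast-fibre sarcoplasmic reticulum (chr1:172209894-172219895, minus strand), was at 272, 207, 126.3, 164 and 227 CPM in the day 3 libraries, against 778, 1825, 709, 2321 and 2161 CPM in the day 1 libraries. The highest day 3 library was below the lowest day 1 library (log2 fold change -2.97 ± 0.44, adjusted p = 0.000604). Camk2a, a calcium-calmodulin kinase, was at 47.7, 83.5, 115.4, 67.1 and 184 CPM in the day 3 libraries, against 325, 618, 236, 741 and 685 CPM in the day 1 libraries, also with separate groups (log2 fold change -2.39 ± 0.4, adjusted p = 0.00106). Clcn1, the chloride channel that stabilises the resting membrane, was at 8.36, 20.2, 36, 10.7 and 82.9 CPM in the day 3 libraries, against 119.5, 154, 73.8, 217 and 187 CPM in the day 1 libraries. Day 3 replicate 5 overlapped the day 1 group (log2 fold change -2.25 ± 0.54, adjusted p = 0.00638), and without it the log2 fold change was -2.997. The junction protein gene Jph2, which holds the reticulum to the surface membrane tubules, fell by 2.41 ± 0.46, Stac3, a partner of the calcium channel, by 1.40 ± 0.24, the myoregulin gene Mrln by 1.38 ± 0.24 and sarcalumenin (Srl) by 1.02 ± 0.15. The release channel gene Ryr1 was not called (log2 fold change -0.38 ± 0.17, adjusted p = 0.102), but was without day 1 replicate 1 (adjusted p = 0.0499). The 4 rises were the kinase gene Camk2d, by 0.87 ± 0.18, the potassium channel genes Kcnj11 and Kcnj2, by 0.81 ± 0.17 and 1.15 ± 0.36, and the phosphatase gene Mtm1, by 0.68 ± 0.16. The call of Kcnj2 was lost in 6 of the 10 fits without 1 library.

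Fast-fibre genes gave 11 lower and 1 higher of 24 (median -0.84, 8 to 13 lower when each library was left out, and 0 higher in 7 of these 10 fits). Eno3 and Pgam2, muscle forms of glycolytic enzymes, and Pfkm, muscle phosphofructokinase, led the list. Eno3 was at 753, 857, 692, 534 and 771 CPM in the day 3 libraries, against 1936, 2964, 1931, 3559 and 3177 CPM in the day 1 libraries, without overlap (log2 fold change -1.91 ± 0.32, adjusted p = 0.000996). Pgam2 fell by 2.20 ± 0.42 and Pfkm by 1.44 ± 0.22. Myosin heavy chains, which define fibre types, were not called. The log2 fold changes were -0.62 ± 0.31 for Myh4, -0.10 ± 0.63 for Myh1, -0.95 ± 1 for Myh2 and 0.80 ± 1.4, with the widest error, for the slow Myh7. Day 1 replicates 1 and 3 held more slow-fibre transcript than the others of their group. The day 3 libraries varied as well. Their median log2 levels of slow-fibre genes, relative to the sham mean, were 1.95, 1.53, 2.68, 0.0449 and 3.25, against 1.89, 1.19, 3.2, 1.28 and 1.11 on day 1. With the slow-fibre level as a covariate 11 of these fast-fibre calls became 12, and the calcium list gave 20 lower.

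Sarcomere and Z-disc genes gave 12 lower and 2 higher of 34 (median -0.381, 11 to 13 lower when each library was left out). Tmod1, which caps the pointed end of thin filaments, was at 198, 185, 145, 174 and 147 CPM in the day 3 libraries, against 319.6, 503, 331, 519.7 and 482 CPM in the day 1 libraries, without overlap (log2 fold change -1.34 ± 0.18, adjusted p = 0.000523). Synm, an intermediate filament gene, fell by 1.85 ± 0.28, Smyd1, a methyltransferase that acts in myosin assembly, by 1.63 ± 0.26, and Ldb3, a Z-disc gene, by 1.43 ± 0.23. The 2 rises were genes of myofibril assembly and remodelling. Nrap was at 5583, 8334, 7395, 7513 and 5333 CPM in the day 3 libraries, against 3166, 2312, 3766, 2555 and 2759.7 CPM in the day 1 libraries, with separate groups (log2 fold change 1.23 ± 0.31, adjusted p = 0.00894). Xirp1 rose by 1.01 ± 0.34, a call that 5 of the 10 fits without 1 library lost. Among the muscle transcription factors, Mef2c was at 76.7, 143, 142, 89.4 and 290.2 CPM in the day 3 libraries, against 473, 1000.3, 347, 1096 and 1255 CPM in the day 1 libraries (log2 fold change -2.49 ± 0.43, adjusted p = 0.0011). Its day 3 libraries were all below the day 1 libraries. Eya4 fell by 1.38 ± 0.22 and Srf, which drives actin genes, by 0.87 ± 0.2, while the TEAD cofactor Vgll2 rose by 1.37 ± 0.39. Myog and Myod1, myogenic transcription factors, were not called, at -1.89 ± 0.78 and -0.52 ± 0.69. Myog was called without day 1 replicate 1 (log2 fold change -2.17, adjusted p = 0.0444) and was at -0.14 without day 1 replicate 5.

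Of 23 genes of the neuromuscular junction and denervation, 5 were lower and 2 higher (median -0.113), where 12.6% and 13.6% of all genes were. The count of lower genes was 1 or 2 without day 1 replicate 2, 4 or 5 or day 3 replicate 1, 2, 3 or 4. Ache, the acetylcholinesterase, was at 0.666, 0.956, 1.72, 0.827 and 5.88 CPM in the day 3 libraries, against 5.35, 17.1, 8.64, 34.1 and 15.5 CPM in the day 1 libraries. Day 3 replicate 5 stood apart from the other day 3 libraries (log2 fold change -2.98 ± 0.65, adjusted p = 0.00377), and without it the log2 fold change was -3.94. Ank1, an ankyrin, the receptor subunit gene Chrne and the genes of the clustering pathway Lrp4 and Dok7 fell by 1.56 ± 0.49, 1.25 ± 0.42, 0.79 ± 0.27 and 1.32 ± 0.46. Each of these 4 calls was lost in 5 to 7 of the 10 fits without 1 library, and Chrne was at -0.70 without day 1 replicate 4. Musk, the receptor kinase that clusters acetylcholine receptors, rose by 1.37 ± 0.39 (adjusted p = 0.0154, and 0.0538 without day 3 replicate 2). Runx1, which rises in denervated muscle, rose by 1.93 ± 0.46. The receptor subunit gene Chrna1 was not called, at 0.42 ± 0.53. Myostatin (Mstn), the inhibitor of muscle growth, was not called either, at 0.33 ± 0.33. Around it, the receptor gene Tgfbr2 rose by 0.82 ± 0.14, and Bmpr2, the ligand Tgfb3 and the follistatin-like gene Fstl1 fell by 0.64 ± 0.13, 0.98 ± 0.21 and 1.62 ± 0.37.

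Energy metabolism fell at several levels. Of 76 nuclear-encoded respiratory chain subunits 36 were lower and 0 higher, with a median of -0.447 and a range between -1.18 and 0.254. In 36 members the groups were separate, and 71 fold changes were negative. Without day 3 replicate 4 the count was 23, and the other 9 fits without 1 library gave up to 37. Complex I had 22 of 36 lower (median -0.484), complex II 2 of 4 (Sdhd, and Sdhc, whose call 8 of the 10 fits without 1 library lost), complex III with cytochrome c 5 of 10, complex IV 1 of 11 and ATP synthase 6 of 15. The complex IV gene was Cox5a, which fell by 0.54 ± 0.16, with an adjusted p of 0.0554 without day 3 replicate 4. Ndufb7, a complex I subunit, was at 6.66, 9.25, 7.84, 7.05 and 10.4 CPM in the day 3 libraries, against 12.1, 14, 16.6, 16.2 and 17.3 CPM in the day 1 libraries, without overlap (log2 fold change -0.88 ± 0.15, adjusted p = 0.00114). Ndufc2, Ndufb8 and Ndufa8 of the same complex fell by 0.82 ± 0.16, 0.79 ± 0.16 and 0.68 ± 0.14. Against sham the picture differed, since 12 of these 76 genes were lower and 2 higher on day 3, where 22.6% of all genes were lower.

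In the TCA cycle and pyruvate entry 6 of 31 were lower and 0 higher (5 to 8 lower when each library was left out). Among all genes 12.6% were lower and 13.6% higher. Idh3a, a subunit of the NAD-linked isocitrate dehydrogenase, was at 184, 219, 172, 141 and 221 CPM in the day 3 libraries, against 386, 426, 482, 525 and 483 CPM in the day 1 libraries, without overlap (log2 fold change -1.30 ± 0.2, adjusted p = 0.000725). Dlat of the pyruvate dehydrogenase complex fell by 1.17 ± 0.23, citrate synthase (Cs) by 0.67 ± 0.18 and Suclg1 by 0.67 ± 0.16. Glycolysis and glycogen genes gave 18 lower and 3 higher of 41 (median -0.623). That count was 10 without day 1 replicate 4 and 11 without day 1 replicate 5 or day 3 replicate 4. The phosphorylase kinase subunit genes, whose products switch on glycogen breakdown, led the list. Phkg1 (chr5:129863435-129879083, minus strand) was at 34.7, 41.3, 40.1, 27.3 and 56.3 CPM in the day 3 libraries, against 164, 263, 125.4, 318 and 267 CPM in the day 1 libraries, without overlap (log2 fold change -2.51 ± 0.34, adjusted p = 0.000523). Phka1 was at 141, 348, 403, 359 and 355 CPM in the day 3 libraries, against 1194, 1768, 1034, 1870.5 and 1844 CPM in the day 1 libraries, again with separate groups (log2 fold change -2.26 ± 0.32, adjusted p = 0.000523). The phosphoglucomutase gene Pgm2 fell by 2.33 ± 0.36 and the lactate dehydrogenase gene Ldha by 1.62 ± 0.33. The rises were Gpi1, glucose phosphate isomerase, by 0.60 ± 0.17, the lactate transporter gene Slc16a1 by 0.81 ± 0.25 and the glucose transporter gene Slc2a1 by 0.97 ± 0.35. Slc16a1 was not called without day 1 replicate 2 or 4 or day 3 replicate 2, and 6 of the 10 fits without 1 library lost Slc2a1.

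Genes of fat metabolism went both ways. Of 46 genes of fatty acid uptake and oxidation 7 were higher and 2 lower, where 13.6% and 12.6% of all genes were. The count of higher genes was thus near its share and that of lower genes below it. The former ran between 2 and 9 when each library was left out. Echs1, an enoyl-CoA hydratase, was at 139, 112.7, 100.1, 99.7 and 107.3 CPM in the day 3 libraries, against 53.8, 47.4, 71.5, 40.7 and 36 CPM in the day 1 libraries, with separate groups (log2 fold change 1.16 ± 0.21, adjusted p = 0.00146). Plin2, a lipid droplet coat protein, rose by 1.27 ± 0.24. Oxct1, which starts ketone body use, fell by 1.55 ± 0.32 and the thioesterase gene Acot13 by 0.76 ± 0.16. Pdk4, which blocks pyruvate entry, and Ucp3 were not called between the days, at 0.59 ± 0.77 and -0.12 ± 0.63, after log2 fold changes of 4.12 and 3.22 on day 1 against sham, both called. In sterol synthesis Fdft1, squalene synthase, rose by 2.13 ± 0.34, while Fdps and Hsd17b7, of steps on either side of it, fell by 1.54 ± 0.32 and 1.62 ± 0.36. Among the mitochondrial regulators, Esrra, a nuclear receptor of oxidative genes, fell by 1.25 ± 0.3 and the deacetylase gene Sirt3 by 1.15 ± 0.26. The coactivator gene Ppargc1a was at 28.2, 68.1, 63.4, 43.4 and 66.8 CPM in the day 3 libraries, against 51.5, 43.1, 69.1, 65.8 and 341 CPM in the day 1 libraries, with overlapping groups and day 1 replicate 5 far above the rest (log2 fold change -1.08 ± 0.48, adjusted p = 0.106).

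Several immediate early genes fell, and their levels were highest in day 1 replicate 5. Nr4a3, an orphan nuclear receptor, was at 11.6, 7.42, 8.6, 2.53 and 7.37 CPM in the day 3 libraries, against 39.3, 19.7, 13.8, 16.2 and 397 CPM in the day 1 libraries, with separate groups (log2 fold change -3.70 ± 0.85, adjusted p = 0.00494). Nr4a1, of the same family, was at 51.1, 77, 56.4, 57.3 and 81.9 CPM in the day 3 libraries, against 196, 299, 87.1, 502 and 1457 CPM in the day 1 libraries, also without overlap (log2 fold change -2.97 ± 0.61, adjusted p = 0.00269). Without day 1 replicate 5 the log2 fold changes were -1.57 for Nr4a3 and -2.07 for Nr4a1. Klf4, also highest in that library, fell by 1.55 ± 0.41 with it and by 0.66 without it. Rcan1, a calcineurin regulator, fell by 0.92 ± 0.23. In the list of AP-1 and immediate early genes 10 of 35 were lower and 0 higher, and 4 to 6 were lower without day 1 replicate 1 or 5 or day 3 replicate 2, 3 or 4. Of the Hippo pathway genes, the YAP target Cyr61 was at 22.8, 55.8, 45.8, 21.5 and 38.9 CPM in the day 3 libraries, against 66.2, 147, 47.5, 189.9 and 479.7 CPM in the day 1 libraries, with overlapping groups (log2 fold change -2.33 ± 0.58, adjusted p = 0.00835), and at -1.61 without day 1 replicate 5. The TEAD cofactor gene Vgll3 fell by 0.91 ± 0.24. Yap1, Ctgf and Ankrd1 were not called, at 0.29 ± 0.22, -0.23 ± 0.54 and 0.55 ± 0.49. Of 30 Hippo pathway and YAP target genes 3 were higher and 4 lower (median 0.0203), near the shares of all genes (13.6% and 12.6%). When each library was left out, 0 to 5 were higher and 2 to 6 lower.

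**Figure D3:**
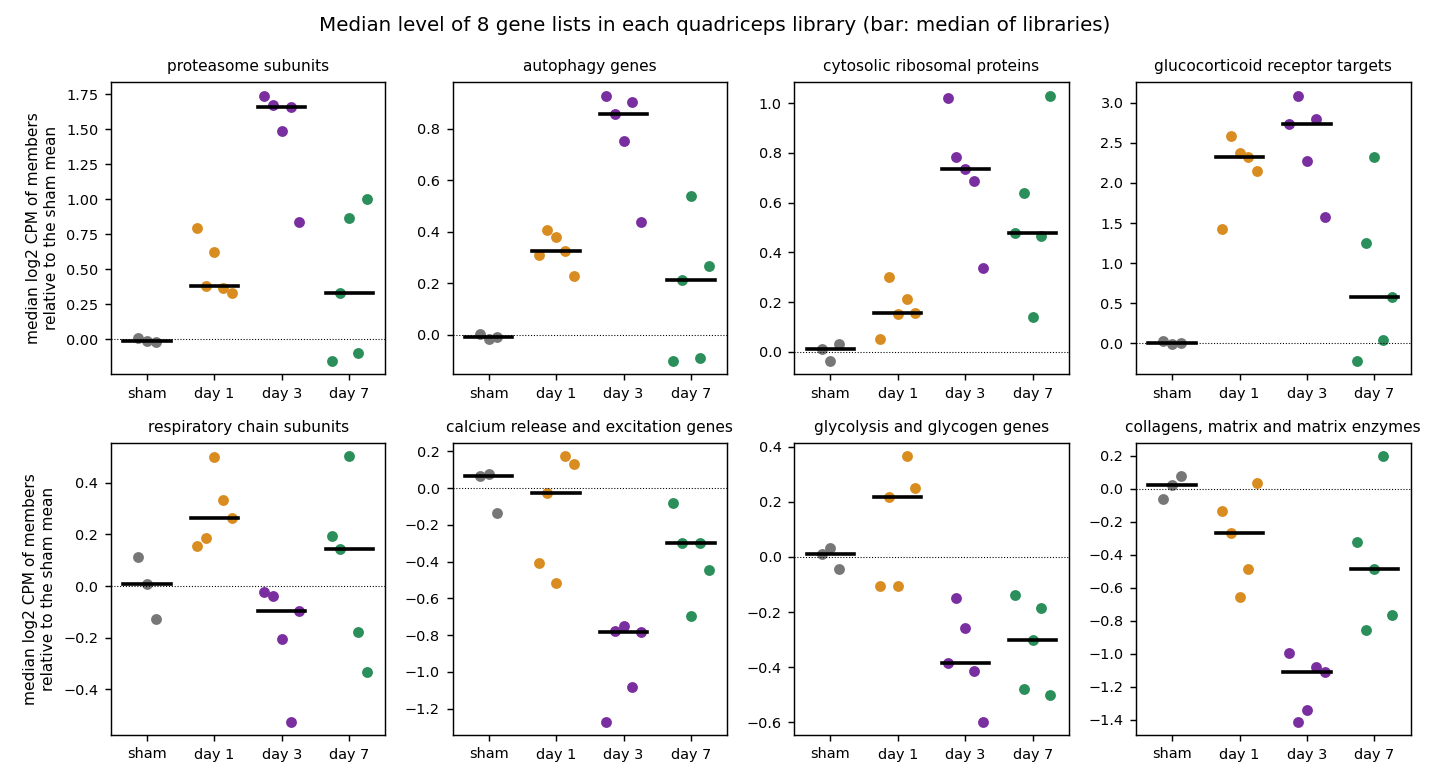
Median log2 CPM of the members of 8 lists in each quadriceps library, relative to the sham mean, for sham, PHx day 1, day 3 and day 7 (1 point a library, bar the median of libraries). The day 3 medians of proteasome and autophagy genes exceed the day 1 medians in all libraries, and the day 3 medians of collagens, calcium release and glycolysis genes lie below them.

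Many genes of the extracellular matrix fell. Of 53 collagen, matrix and matrix enzyme genes 24 were lower and 1 higher, with a median of -0.893, and 48 fold changes were negative (21 to 27 lower when each library was left out). The collagen chains carried it, with 14 of 15 lower (median -2.08, between -3.67 and -0.466), against 10 lower of 38 other matrix genes. Col1a1, a chain of type I collagen (chr11:94936270-94951856, plus strand), was at 5.75, 4.24, 5.97, 4.87 and 38.1 CPM in the day 3 libraries, against 131, 169, 63.9, 185 and 205 CPM in the day 1 libraries. Day 3 replicate 5 was at 38.1 CPM and the other 4 day 3 libraries at 4.24 to 5.97 (log2 fold change -3.67 ± 0.67, adjusted p = 0.00152), and without replicate 5 the log2 fold change was -4.86. Col6a1, a chain of the pericellular type VI collagen, was at 8.66, 8.41, 11.7, 9.49 and 19.9 CPM in the day 3 libraries, against 67.2, 64, 28.7, 68.3 and 92 CPM in the day 1 libraries, also without overlap (log2 fold change -2.46 ± 0.38, adjusted p = 0.000675). Col6a2, Col5a1 and the crosslinking oxidase gene Loxl2 fell by 2.83 ± 0.47, 2.94 ± 0.48 and 2.18 ± 0.34. The only rise was Adamts2, a procollagen-processing protease, at 302, 364, 124.2, 245 and 70.8 CPM in the day 3 libraries, against 19.6, 42.8, 44.7, 31.5 and 35.8 CPM in the day 1 libraries, with separate groups (log2 fold change 2.66 ± 0.48, adjusted p = 0.00142). Decorin (Dcn), a proteoglycan that fibroblasts also make, was at 1030, 199.8, 236, 422 and 229 CPM in the day 3 libraries, against 501, 523, 458, 337 and 369 CPM in the day 1 libraries with overlapping groups, and was not called (log2 fold change -0.048 ± 0.41, adjusted p = 0.948).

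Marker sums of cell types were set beside these lists. The sum of 12 fibroblast markers was 529 to 2076 CPM on day 3 and 1304 to 1893 CPM on day 1 (exact two-sided permutation test, p = 0.0952, adjusted over 16 lists 0.226). Of the 12 markers 7, the collagen genes among them, were lower, while Dcn, Gsn, Ly6a, Pdgfra and Cd34 were not called. Day 3 replicate 1 had both the highest Dcn of the 10 libraries, at 1030 CPM, and a Col1a1 level among the 4 low ones. The part of a change in fibroblast number in the collagen falls was not tested. The sum of 12 muscle fibre markers was 142370 to 246120 CPM on day 3 and 259430 to 447270 CPM on day 1, without overlap (exact p = 0.00794, the smallest that 252 splits allow, adjusted 0.0635). Among these markers 7 were lower, while Myh1, Myh2, Myh4, Actn3 and Tnnt3 were not called. Ttn was the largest part, at 66220 to 156000 CPM on day 3 and 164200 to 276900 CPM on day 1. Without Ttn the sums of the days overlapped. Adipocyte markers summed to 362 to 817 CPM on day 3 and 1057 to 3418 CPM on day 1 (exact p = 0.00794, adjusted 0.0635), with Car3 the only 1 of 10 called. Without Car3, which is also a major transcript of slow muscle, the sums overlapped, at 186 to 522 CPM on day 3 and 162 to 781 CPM on day 1 (exact p = 0.516).

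Macrophage markers summed to 114 to 350 CPM on day 3 and 77.8 to 165 CPM on day 1 (exact p = 0.119), and without Cd68 to 32.3 to 274 CPM on day 3 and 73.2 to 157 CPM on day 1 (exact p = 0.73). Cd68 alone of the 13 was called, at 76.2, 97.1, 37, 80.6 and 21 CPM in the day 3 libraries, against 7.2, 7, 7.63, 4.62 and 5.42 CPM in the day 1 libraries, with no overlap (log2 fold change 3.29 ± 0.46, adjusted p = 0.000523). The receptor Csf1r and the complement genes C1qa, C1qb and C1qc were not called. The 3 tested pancreas markers, the hormone genes Ins2, Gcg and Iapp, were called lower. Their sum with the 2 untested markers was 0 to 0.242 CPM on day 3 and 0.13 to 54.2 CPM on day 1, highest in day 1 replicates 1 to 3. Hepatocyte markers summed to 9.65 to 255 CPM on day 3 and 90.6 to 264 CPM on day 1 (exact p = 0.413). Without Cyp2e1, which made up most of the sum in part of the libraries, they summed to 1.27 to 208 CPM on day 3 and 2.72 to 126.1 CPM on day 1 (exact p = 0.944). Of the lymphocyte, erythroid and pancreas markers, 8 of 11 T and NK, 6 of 8 B, 5 of 8 erythroid and 5 of 10 pancreas genes are not listed in the table.

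**Figure D4:**
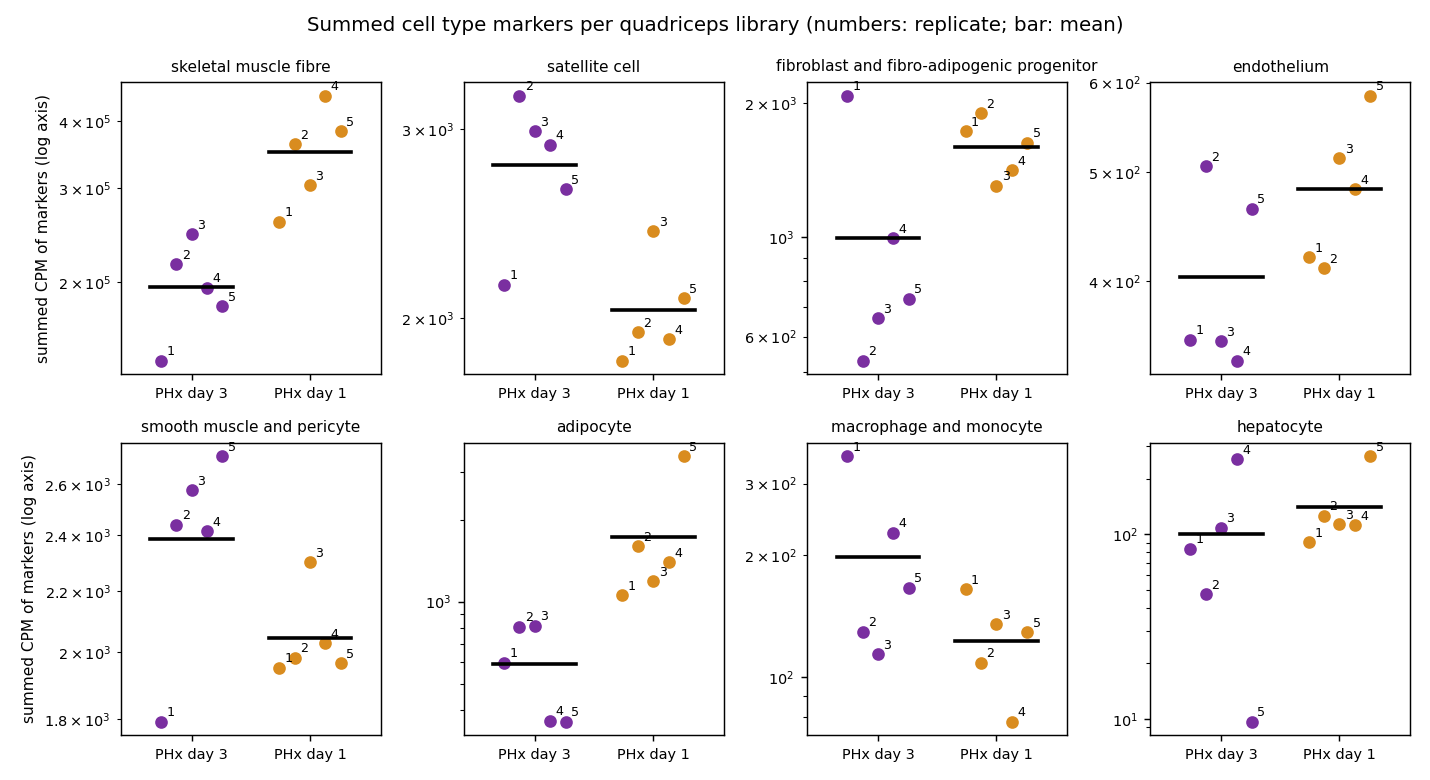
Summed CPM of the markers of 8 cell types in the 5 PHx day 3 libraries (left) and the 5 PHx day 1 libraries (right), with replicate numbers at the points. Muscle fibre and adipocyte sums are lower in all day 3 libraries, the former overlapping without Ttn and the latter without Car3. The fibroblast sum of day 3 replicate 1 is the highest of the 10.

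Growth and stress genes outside these groups changed in part. Of 35 S phase genes 7 were lower (5 to 8 when each library was left out) and 1, the sliding clamp gene Pcna, higher (by 0.70 ± 0.19). Among all genes 12.6% were lower and 13.6% higher. Mcm2, a subunit of the replicative helicase, was at 1.45, 2.14, 1.42, 1.85 and 3.12 CPM in the day 3 libraries, against 3.7, 6.48, 3.31, 8.72 and 6.76 CPM in the day 1 libraries, without overlap (log2 fold change -1.52 ± 0.33, adjusted p = 0.00358). Rrm1, of ribonucleotide reductase, fell by 1.40 ± 0.24. The cell cycle inhibitor gene Cdkn1a was not called between the days, at 0.44 ± 0.61. In the polyamine pathway 4 of 8 genes were lower (3 or 4 when each library was left out). Smox, spermine oxidase, was at 27.7, 34.3, 18.9, 21.4 and 27.1 CPM in the day 3 libraries, against 126.1, 291, 110.4, 329 and 409 CPM in the day 1 libraries, without overlap (log2 fold change -3.29 ± 0.58, adjusted p = 0.00131). Odc1, the rate-limiting decarboxylase, fell by 1.47 ± 0.34, spermine synthase (Sms) by 0.76 ± 0.22 and the antizyme gene Oaz2 by 0.67 ± 0.2, a call lost without day 1 replicate 5 or day 3 replicate 2 or 4, while Paox, the acetylpolyamine oxidase, rose by 1.57 ± 0.34. Of 32 NRF2 and antioxidant genes 9 were higher, 2 to 5 without day 1 replicate 2, 4 or 5 or day 3 replicate 2, 3 or 4, and 2 were lower. Among them, cytosolic Sod1 and thioredoxin (Txn1) rose by 1.16 ± 0.22 and 1.58 ± 0.31, and mitochondrial Sod2 and the glutathione transferase gene Gsta4 fell by 0.78 ± 0.22 and 1.82 ± 0.45. Without day 3 replicate 5 the log2 fold change of Gsta4 was -2.50. The chaperones of the endoplasmic reticulum Canx and Pdia3 rose by 1.004 ± 0.21 and 0.74 ± 0.19. Dbp, a clock output factor, was at 3.88, 3.52, 3.9, 2.14 and 11 CPM in the day 3 libraries, against 18.5, 26.3, 7.73, 51.4 and 46.7 CPM in the day 1 libraries, with only day 3 replicate 5 reaching into the day 1 range (log2 fold change -2.62 ± 0.63, adjusted p = 0.00643); the hour of sampling is not given in the labels. The clock repressor gene Bhlhe41 fell by 1.96 ± 0.47, while Arntl, Per1 and Nr1d1 of the core loop were not called, at 0.43 ± 0.52, 0.27 ± 0.37 and -0.28 ± 0.23. Of 26 clock and output genes 4 were higher and 3 lower (median 0.0149), near the shares of all genes (13.6% and 12.6%). When each library was left out, 1 to 5 were higher and 2 to 4 lower.

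The genes with the largest changes were named by size, from those called, separate between the groups and averaging 5 CPM or more. Ffar4, a receptor for long-chain fatty acids, was at 10.9, 18.9, 6.73, 16.8 and 1.93 CPM in the day 3 libraries, against 0, 0.0737, 0.267, 0.195 and 0.548 CPM in the day 1 libraries (log2 fold change 5.64 ± 0.92, adjusted p = 0.000922). Fam65c was at 23.3, 35.4, 9.72, 17.8 and 3.07 CPM in the day 3 libraries, against 0.05, 0.589, 0.587, 0.456 and 0.183 CPM in the day 1 libraries (log2 fold change 5.59 ± 0.75, adjusted p = 0.000523). In both, day 3 replicate 5 was the lowest day 3 library by a wide margin, and without day 1 replicate 5 the log2 fold change of Ffar4 was 6.31. Itpkc, an inositol trisphosphate kinase, rose by 3.88 ± 0.7, the keratin gene Krt80 by 4.99 ± 0.86, the p53 target and desmosome gene Perp by 3.89 ± 0.6, and the potassium channel gene Kcnk5 by 3.61 ± 0.56. Doc2b, a calcium sensor of exocytosis, Mustn1 and Ccdc136 rose by 3.26 ± 0.76, 3.25 ± 0.54 and 3.13 ± 0.39. Cd68, given above, completes the 10.

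Among the falls, Mybph, a myosin-binding protein of the thick filament, was at 1.7, 3.86, 6.73, 0.973 and 13.8 CPM in the day 3 libraries, against 35.4, 165, 44.1, 330.5 and 106.6 CPM in the day 1 libraries (log2 fold change -4.65 ± 0.94, adjusted p = 0.00251). Its log2 fold change was -5.35 without day 3 replicate 5 and -4.01 without day 1 replicate 4. Dio2, the deiodinase that makes active thyroid hormone, was at 0.848, 2.29, 1.67, 2.38 and 1.93 CPM in the day 3 libraries, against 4, 10.2, 3.84, 9.63 and 146 CPM in the day 1 libraries, without overlap, and its log2 fold change of -4.24 ± 0.9 became -1.91 without day 1 replicate 5. Tfrc, the transferrin receptor, was at 8.42, 11.7, 12.9, 8.71 and 22.6 CPM in the day 3 libraries, against 97.6, 162, 78.4, 244 and 258 CPM in the day 1 libraries, with separate groups (log2 fold change -3.71 ± 0.52, adjusted p = 0.000523). The myosin light chain kinase gene Mylk4 fell by 4.03 ± 0.64, the calcium-sensing receptor gene Casr by 3.99 ± 0.56, Wfdc1 by 3.85 ± 0.51, and the potassium channel subunits Kcnf1 and Kcng4 by 3.84 ± 0.7 and 3.76 ± 0.86. Odf3l2 and Nrep fell by 3.80 ± 0.87 and 3.78 ± 0.8. Without day 3 replicate 5 the log2 fold changes were -4.80 for Kcng4 and -4.59 for Nrep.

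The regrowing liver of the same series moved otherwise over the same days. Of 12780 genes tested in both tissues, the day 3 minus day 1 shift was higher in quadriceps than in liver for 2421 (18.9%) and lower for 1700 (13.3%), by the interaction term of a fit over all 36 libraries. The fit took all libraries as independent, and the labels do not say whether liver and muscle came from the same animals. Proteasome genes had a median shift of 0.991 in quadriceps and -0.308 in liver, and 33 of 43 differed, all higher in quadriceps. Psmb4 shifted by 1.58 in quadriceps and by -0.41 in liver (difference 1.98 ± 0.28, adjusted p = 2e-05). Ribosomal protein genes had medians of 0.517 in quadriceps and -0.368 in liver (72 of 75 higher), translation factors 0.444 and -0.471 (35 of 45) and ribosome biogenesis genes 0.35 and -0.761 (38 of 48).

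The opposite held for the matrix and the cell cycle. Collagen and matrix genes had a median shift of -0.899 in quadriceps and 0.425 in liver (29 of 52 lower in quadriceps). S phase genes had medians of -0.163 in quadriceps and 2.06 in liver (26 of 35 lower), and mitosis genes -0.603 in quadriceps and 3.51 in liver (25 of 27 lower). Col1a1 in liver was at 101.5, 175, 81.5, 139 and 139 CPM on day 3, against 49.7, 8.18, 13.9, 8.57 and 12.3 CPM on day 1, a rise beside the fall in muscle (difference -6.46 ± 0.94, adjusted p = 2.41e-05). Col3a1 and Col1a2, of the same fibrils, differed by -6.17 and -4.98, and the neurotrophin receptor gene Ntrk2 by -6.11. On the positive side, Ffar4 differed by 7.76, Abra, an actin-binding protein of striated muscle, by 6.74, Fam65c by 5.25 and Itpkc by 4.89. In liver Abra was at 0.145 CPM or less in 6 of the 10 libraries and reached 13.1 CPM in day 1 replicate 5.

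**Figure D5:**
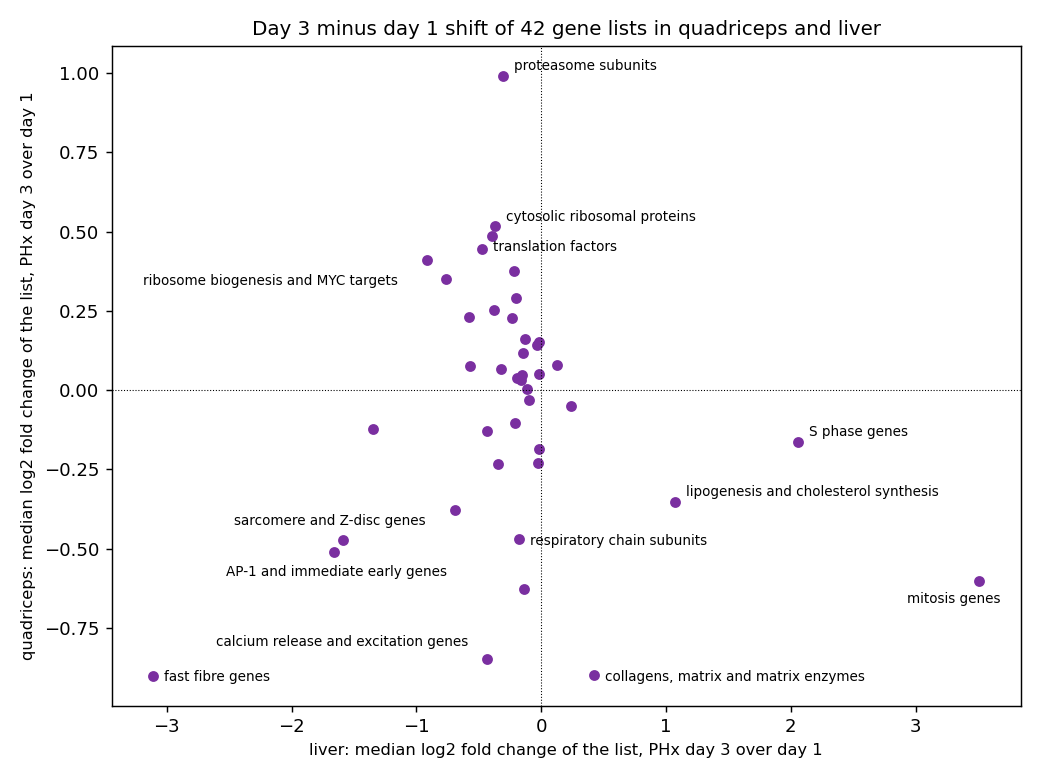
Median log2 fold change, PHx day 3 over day 1, of 42 gene lists in quadriceps (vertical axis) and liver (horizontal axis), 1 point a list. Proteasome genes (0.991 in quadriceps, -0.308 in liver) and mitosis genes (-0.603 in quadriceps, 3.51 in liver) hold the highest median in quadriceps and in liver.

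Sham and day 7 muscle place the 2 days. On day 1 413 genes (3.04%) were higher and 307 (2.26%) lower than in sham muscle, and on day 3 3379 (24.8%) and 3075 (22.6%). From day 3 to day 7, 2315 genes (17%) were higher and 2656 (19.5%) lower, and day 7 differed from sham in 6 higher and 2 lower genes. These comparisons share libraries and 3 sham libraries stand against 5 of each day, so the counts are not set against each other by a test. The day 7 libraries were unlike one another. On the first principal component of all 18 quadriceps libraries they scored -67.5, -14.2, 33.5, -76.7 and -9.28. Sham libraries scored -79.4 to -65.3, day 1 libraries -4.13 to 17.4 and day 3 libraries 20.9 to 88. The few calls of day 7 against sham thus do not show that each library was back at sham. No proteasome gene was called against sham on day 1, although the median log2 fold change of the list was 0.52. Relative to the sham mean, the median log2 level of the list was 0.329 to 0.792 in the day 1 libraries and -0.0172 to 0.0108 in the sham libraries. On day 3 37 of 43 were higher than sham and 1 lower, and from day 3 to day 7 36 were lower. Psmb4 averaged 45.1 CPM in sham muscle, 65.2 on day 1, 197 on day 3 and 70.5 on day 7 (means of 3, 5, 5 and 5 libraries).

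Ribosomal protein genes took another course. Of the 75, 0 were called against sham on day 1 (median 0.181), 74 were higher than sham on day 3, and from day 3 to day 7 only 4 were lower. Their median log2 level relative to the sham mean was 0.339 to 1.02 in the day 3 libraries and 0.14 to 1.03 in the day 7 libraries. Only 6 of all 13601 genes were called higher on day 7 against sham, so the calls do not show these genes above sham then. Rps19 averaged 23.7, 25.2, 46.9 and 41.2 CPM in sham, day 1, day 3 and day 7 muscle. The collagens and calcium genes fell after day 1 as well, with 29 of 53 and 21 of 33 lower than sham on day 3, and 25 and 18 higher again from day 3 to day 7. Col1a1 averaged 229.9, 151, 11.8 and 138 CPM, and Casq1 2152, 1559, 199 and 1059 CPM, in the same order. Interferon and antigen-processing genes had 13 of 50 lower than sham on day 1 and 27 lower on day 3, with 19 higher again from day 3 to day 7. Their median log2 fold change against sham was -1.22 on day 1 and -0.948 on day 3, so the fall did not deepen. Between the 2 days 1 was higher and 4 were lower (median 0.0962), where 13.6% and 12.6% of all genes were. Trim63 and Fbxo32 fell after day 3, by 2.35 (adjusted p = 0.0235) and 2.26 (adjusted p = 0.0205) on the log2 scale from day 3 to day 7.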

How the data were processed

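Gene-level read counts were deposited by the authors for liver and quadriceps of the series. Per the submitters' processing notes, tools named are FastQC 0.11.5, STAR 2.7.10a, Subread 2.0.3 with featureCounts, and edgeR 3.40.2, with the mm10 build; strand and multi-mapping settings are not given in the sources used here. Libraries were made from total RNA of frozen tissue, per the labels' protocols. The deposited counts hold 14702 genes, none of them mitochondrially encoded; 23 symbols are written as dates, 2 are duplicated, and 36 other per-sample columns were not used. Days come from sample titles.

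The 18 quadriceps libraries entered one edgeR 4.0.16 quasi-likelihood fit (R 4.3.3, limma 3.58.1; filterByExpr, TMM, robust), with Benjamini-Hochberg adjustment over 13601 genes at 0.05. Standard errors are the log2 fold change over the root of F. The tissue interaction used all 36 libraries and 12780 genes, with TMM within each tissue. Marker sums were compared by exact two-sided permutation over 252 splits. DESeq2 1.42.0, other scalings and leave-one-out fits were alternatives, and the test was checked on simulated counts. No 2 libraries repeated each other.

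Genes named are the 10 largest rises and falls (5 CPM or more on average, separate groups), the 4 smallest p in each list described, a list of fixed genes, and 4 per direction for the difference from liver. Psma7, Psmc4, Psmb6, Psmd5, Psmd7, Psmd9, Psmd10, Pomp, Bnip3, Sqstm1, Ctsl, Adamts2, Dcn, Ryr1, Eif4ebp1, Igfbp5, Clcn1, Jph2, Rps18, Rpl14, Slc43a2, Bckdha, Ldha and the few members named because a count was 5 or fewer were chosen after their values were seen. A few genes that the rule names are not reported here. The libraries and gene lists were chosen with earlier results of these data known. Promoter and start sequences come from RefSeq (GRCm38.p6).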

Additional observations from a re-analysis of the deposited data

Results flagged for a closer look

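A library was named here where its gap to the nearest of the other 4 of its group, over the range of the group, passed Dixon's critical value of 0.71 on log2(CPM + 0.5). In 494 groups of 5 tested, 36 values were picked out, and chance picks about 1 in 20 groups. Of these values 19 belonged to day 3 replicate 5, and 9 of the 19 to proteasome genes. In that library Psma7 was at 108.3 CPM (186.4 to 208.9 CPM in the other day 3 libraries), Psmb3 at 84.35 (141 to 161.2), Psmb4 at 115.9 (206.9 to 227.1) and Psmb5 at 22.16 (36.1 to 39.56). Psmb6 was at 41.52 CPM (64.39 to 72.79), Psmc4 at 92.95 (181.1 to 215.4), Psmd7 at 124.4 (182.6 to 211), Psmd11 at 388 (656.7 to 774.3) and Psmd13 at 52.8 (86.58 to 100.1). All 9 genes were lower there than in the other day 3 libraries.

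Other genes set the same library apart. Nop14 was at 50.56 CPM (81.47 to 94.19 in the other day 3 libraries), Npm1 at 131.7 (193.6 to 214.7), Pdpk1 at 224.8 (331.7 to 366), Mstn at 92.29 (254.5 to 349.3), Usp14 at 100.5 (165.2 to 194.1), Sod1 at 89.13 (150.2 to 168.7) and Txn1 at 20.14 (47.34 to 54.17). Higher in it were the matrix and growth factor genes Col1a1 at 38.09 CPM (4.243 to 5.971), Col6a2 at 12.07 (4.549 to 5.449) and Igfbp5 at 161 (29.58 to 40.98). In each of these genes except Mstn, which was not called, replicate 5 lay on the day 1 side of its group.

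Day 3 replicate 1 stood below its group in Phka1, at 141.3 CPM (348.2 to 402.8 in the others), in Srf, at 22.11 (37.66 to 44.98), in Ulk2, at 107.6 (151.1 to 168.8), and in the sum of smooth muscle and pericyte markers, at 1794 (2415 to 2713). That sum was mostly Des, which muscle fibres also express, and without Des replicate 1, at 235.1 CPM, lay within the range of its group (219.9 to 366.4). Day 1 replicate 5 stood above its group in Dio2, at 146.1 CPM (3.839 to 10.24 in the others), Klf4, at 97.3 (15.56 to 25.89), Socs3, at 53.28 (3.36 to 7.497), Ppargc1a, at 341 (43.1 to 69.11), and Ubr4, at 1013 (786.1 to 834.4). The same library had the highest sums of neutrophil markers, at 26.48 CPM (5.793 to 8.104), and of erythroid markers, at 248.6 (4.248 to 13.81). Day 1 replicate 1 was low in Foxo1, at 108.4 CPM (378.3 to 448.4), and Doc2b, at 5.597 (27.34 to 31.62). Day 1 replicate 2 was high in Ctsz, at 18.86 CPM (13.21 to 14.34), and day 1 replicate 3 in Sirt3, at 5.866 (4.036 to 4.495), and in the smooth muscle and pericyte sum, at 2300 (1951 to 2026, and without Des 405.2 against 297.6 to 392.2). Day 3 replicate 4 held no read of Cxcl1, at 0 CPM (0.2423 to 0.3542).

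The day 3 minus day 1 shift differed between quadriceps and liver, by the interaction term, for 125 of the 214 genes described that were tested in both tissues, 81 higher and 44 lower in quadriceps. The 4 furthest in each direction and the genes fixed for naming are given here. Ffar4 differed by 7.76, Abra by 6.736, Fam65c by 5.25 and Itpkc by 4.891 on the log2 scale, higher in quadriceps, and Col1a1 by -6.464, Col3a1 by -6.174, Ntrk2 by -6.106 and Col1a2 by -4.977. Of the genes fixed for naming, Trim63 differed by 3.843 (adjusted p = 0.0179) and Fbxo32 by 2.46 (0.0205), and neither was called within quadriceps. Cdkn1a differed by 2.714, Mt2 by 2.674, Mt1 by 2.637, Il6ra by 1.882, Psmd11 by 1.681 and Stat3 by 0.9734, all higher in quadriceps, and Dbp by -3.893. Trim63 and Fbxo32 were between 0 and 20.8 CPM in the liver libraries of both days, and no explanation of these differences was tested.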

How the results depend on the processing

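The counts over all genes kept their direction and stayed within 1.5 times under each alternative. DESeq2 size factors in place of TMM gave 1841 higher and 1741 lower, no filter 1907 and 1583, the 10 libraries alone 1627 and 1502, DESeq2's own test 2178 and 2039, and the fits without 1 library 1339 to 2272 and 1254 to 2011. A slow-fibre covariate, an alternative chosen after seeing the data, gave 1912 and 1749. Of 269 genes examined by name 225 were called, 176 of them under all alternatives; 49 lost the call under at least 1 and 0 changed sign. Replicate numbers did not pair the samples, with 0 of 5 correlations over 0.1 (-0.144 to 0.0801) and 0 day 3 libraries closest to their own number; the replicate block gave 1622 higher and 1461 lower, with Foxo1 at 0.06365 and Myh7 at -0.248, both uncalled. Among list counts, lower respiratory chain genes ran between 23 and 37 and lower glycolysis genes between 10 and 21 without 1 library. Log2 fold changes of uncalled genes changed sign without 1 library, in ranges of -0.2084 to 0.8417 (Chrna1), -0.4021 to 0.03717 (Ctgf), -0.6873 to 0.1399 (Dcn), -0.1407 to 0.3128 (Ddit4), -0.3002 to 0.04369 (Foxo1), -0.657 to 0.341 (Myh1), -1.797 to 0.1317 (Myh2), -0.6499 to 2.64 (Myh7), -1.169 to 0.3289 (Myod1), -0.0594 to 0.1247 (Psmd10), -1.406 to 0.4466 (Socs3) and -0.4008 to 0.08221 (Ucp3). On total counts the neutrophil and skin marker sums differed by 0.85232 and 0.3389 CPM, day 3 minus day 1, the reverse of their sign on TMM-scaled sizes; the cause was not tested. The smooth muscle and pericyte sum differed by -77.99 CPM less Des, an alternative chosen after seeing the data, against 342.06 CPM with it. Of the 44 uncalled genes 12 were called under at least 1 alternative. Genes of a few CPM, such as Ache, Mcm2 and Ffar4 on day 1, rest on few reads.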

Other observations

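Transcripts of pancreatic hormones appeared in all sham libraries and in part of the day 1 libraries. The sum of 5 pancreas markers was 6.39 to 27.1 CPM in the 3 sham libraries. In the day 1 libraries it was 4.75, 54.2, 13.7, 0.13 and 0.244 CPM, and in the day 3 libraries 0.242, 0, 0.152, 0.0486 and 0.176 CPM. The day 7 libraries held 0.0508 to 0.965 CPM. Hepatocyte markers summed to 127 to 536 CPM in sham libraries and 10.9 to 392.2 CPM in day 7 libraries. In sham libraries nearly all of this was Cyp2e1, and the other 12 markers summed to 2.12 to 4.08 CPM in sham libraries and 2.73 to 114.2 CPM in day 7 libraries.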
